A study of Homo sapiens with 9 samples.

Results

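Antisense long noncoding RNAs (lncRNAs) that were readily detected in RIVA cells were compared between BCL10-mutant and control cells, together with the protein-coding genes on whose opposite strand they are named. The members were all genes annotated as lncRNA whose symbol is a protein-coding root followed by -AS and a number, with at least 30 read counts in each of the 9 libraries, other than EPB41L4A-AS1. There were 193 such genes among 60656 genes in the table and among 1428 lncRNAs with a symbol of this form, of which 566 had no count in any library. A protein-coding gene with the same root was found for 191 of them (187 distinct genes, of which PIK3CD, PAXIP1, DLGAP1 and PTOV1 each have a pair of members), and RPARP-AS1 and CCDC144NL-AS1 had none. RIVA is an established human lymphoma line of the ABC-DLBCL type (the activated B-cell form of this large-cell lymphoma), and all cells carried a lentiviral pLVX tet-on vector and received doxycycline for 24 h. The vector held no insert (vector, with wild-type BCL10 only), the truncation BCL10 S136X or the CARD-domain missense mutant BCL10 R58Q, with 3 libraries each. The dose is 200 ng/mL in the treatment protocol, while the sample characteristics give 200 ng/uL. All 3 groups kept their endogenous BCL10, so each mutant was read on top of the wild-type gene, in 1 cell line.

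Antisense lncRNAs are transcribed from the strand opposite to another gene. Many start close to the start of that gene and run away from it, so that both transcripts leave a shared promoter region in opposite directions, while others lie inside the gene or run into its 3′ end. Some act on the neighbouring gene in cis, and for most no function is known. BCL10 is a signalling adaptor that activates NF-kB downstream of the B-cell receptor.

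Total counts ranged from 28047713 to 33122267 per library, and the members took between 0.183% and 0.236% of them. BCL10 counts, which include the construct, were 885 to 1268 in the vector libraries and 9838 to 14293 in the mutant libraries. All R58Q libraries carry a later date in their column names than the other 6, so this date and the R58Q construct cannot be told apart. Summed B-cell markers lay between 2440 and 3220 CPM in every library, while monocyte and NK markers summed to at most 0.647 CPM, with the NK marker KLRD1 at 0 in all libraries. T-cell markers summed to between 2.05 and 13.7 CPM. Of the markers of other cells, EPCAM was detected (mean 43.7 CPM), and the 4 fibroblast markers, led by COL1A1, summed to 5.77 to 8.07 CPM in vector, 12.1 to 17.7 CPM in S136X and 12.6 to 18.2 CPM in R58Q. Whether these markers have a part in the differences below was not tested. The setting for strand during read counting is not given in the sources used here, so reads from exon bases that a member and its sense gene share cannot be told apart. In bulk RNA, a change in the cells that express a gene and a change in RNA per cell cannot be told apart.

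The sequences around the start sites of members on which the results turn are shown first. Of the members fitted lower, 63 in S136X and 64 in R58Q start within 1000 bases of their sense gene's start. A larger number, 84 and 91, start farther away. They are RefSeq windows on GRCh38.p14, read 5′ to 3′ on the strand of the antisense lncRNA. RefSeq starts can differ from those in the count table and in GENCODE release 29, by which the pairs are placed below. In the first 4, capitals mark the stretch from the start of the sense gene, which is transcribed to the left, to the start of the antisense lncRNA, which is transcribed to the right, with 29 bases on either side. The starts of RTCA-AS1 and RTCA are 42 bases apart (chr1:100266145-100266245, minus strand), those of ZNF528-AS1 and ZNF528 92 (chr19:52397728-52397878, minus strand), those of DICER1-AS1 and DICER1 159 (chr14:95157500-95157717, plus strand) and those of ID2-AS1 and ID2 193 (chr2:8681834-8682085, minus strand). In GENCODE release 29 the starts of ID2-AS1 and ID2 lie 3018 bases apart. ID2-AS1 is therefore counted below with the members whose starts are over 1000 bases apart.
RTCA-AS1: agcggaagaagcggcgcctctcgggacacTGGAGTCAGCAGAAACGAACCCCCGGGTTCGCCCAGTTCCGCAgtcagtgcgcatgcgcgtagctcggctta
ZNF528-AS1: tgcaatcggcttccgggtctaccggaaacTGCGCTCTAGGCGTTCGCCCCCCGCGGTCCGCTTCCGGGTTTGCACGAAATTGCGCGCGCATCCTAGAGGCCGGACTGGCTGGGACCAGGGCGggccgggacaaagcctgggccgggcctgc
DICER1-AS1: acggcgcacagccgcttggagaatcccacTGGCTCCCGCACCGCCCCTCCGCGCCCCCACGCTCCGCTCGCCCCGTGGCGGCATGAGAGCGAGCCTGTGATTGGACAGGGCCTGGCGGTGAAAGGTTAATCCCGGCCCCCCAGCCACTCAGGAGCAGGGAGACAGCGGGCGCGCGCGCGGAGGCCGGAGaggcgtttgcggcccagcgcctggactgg
ID2-AS1: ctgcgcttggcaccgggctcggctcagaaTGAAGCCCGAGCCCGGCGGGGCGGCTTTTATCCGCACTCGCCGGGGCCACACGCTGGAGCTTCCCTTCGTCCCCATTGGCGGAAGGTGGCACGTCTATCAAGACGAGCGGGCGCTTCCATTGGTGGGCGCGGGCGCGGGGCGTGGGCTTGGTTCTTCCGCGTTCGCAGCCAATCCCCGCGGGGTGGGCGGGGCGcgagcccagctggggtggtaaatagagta
In the 3 windows that follow, 250 bases before the start are in lower case and the first 50 transcribed bases in capitals. They belong to PIK3CD-AS2 (chr1:9687525-9687824, minus strand), IFNG-AS1 (chr12:67989197-67989496, plus strand) and ADIRF-AS1 (chr10:86971191-86971490, minus strand), which are described at length below and start more than 1000 bases from the start of their sense gene.
PIK3CD-AS2: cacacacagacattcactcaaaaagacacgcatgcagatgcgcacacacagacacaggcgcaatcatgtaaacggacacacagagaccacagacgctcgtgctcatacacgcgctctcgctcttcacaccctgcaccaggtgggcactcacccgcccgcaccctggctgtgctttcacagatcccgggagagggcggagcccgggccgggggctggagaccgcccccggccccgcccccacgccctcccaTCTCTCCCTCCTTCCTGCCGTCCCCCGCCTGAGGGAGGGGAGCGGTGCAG
IFNG-AS1: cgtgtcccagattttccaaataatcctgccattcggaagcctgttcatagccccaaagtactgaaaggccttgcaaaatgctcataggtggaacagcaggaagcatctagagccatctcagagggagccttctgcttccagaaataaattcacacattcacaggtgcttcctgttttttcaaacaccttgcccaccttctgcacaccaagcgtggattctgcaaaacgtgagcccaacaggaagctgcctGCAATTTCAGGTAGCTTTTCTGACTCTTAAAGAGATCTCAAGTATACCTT
ADIRF-AS1: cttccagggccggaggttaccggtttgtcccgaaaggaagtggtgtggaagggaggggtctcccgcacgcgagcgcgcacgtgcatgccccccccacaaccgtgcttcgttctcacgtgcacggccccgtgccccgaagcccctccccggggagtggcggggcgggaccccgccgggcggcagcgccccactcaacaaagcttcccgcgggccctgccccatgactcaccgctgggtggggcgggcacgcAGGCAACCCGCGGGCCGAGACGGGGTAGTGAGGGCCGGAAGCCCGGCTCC
These windows differ in base composition. The window of ADIRF-AS1 holds 33 CpG dinucleotides, 3 copies of GGGCGG (the GC box) and 1 copy of TGACTCA (the AP-1 motif), counted on both strands. The kB consensus (the NF-kB motif) is matched there at 1 site, which reads as a match on either strand. The window of PIK3CD-AS2 holds 22 CpG and 4 GC boxes. The window of IFNG-AS1 holds 4 CpG and none of the motifs searched. RefSeq windows of 300 bases were found for 150 members and 161 sense genes. The members' 178 windows had a median of 25 CpG, against 14 over all 35116 windows, and 62.4% held GGGCGG, against 45% of all. The kB consensus was present in 15.2% of the members' windows (11.3% of all), TATAAA in 6.74% (11.5%), CCAAT in 31.5% (34.6%) and TGACTCA in 2.25% (4.95%). The windows of the sense genes were alike in composition, with a median of 24 CpG and GGGCGG in 62.7%, and in 42 pairs the window of the member overlapped that of its sense gene.

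The 191 pairs were placed by the strands, gene spans and exons of GENCODE release 29, which can differ from the positions in the count table (hg38). In 83 pairs the 5′ ends overlapped, with a median of 704 bases between the starts, and in 18 pairs the genes lay apart with their 5′ ends facing, at a median distance of 92 bases. The 3′ ends overlapped in 45 pairs, 25 members lay inside the sense gene, 19 spanned it, and LYRM4-AS1 lay apart with its 3′ end facing LYRM4. In 72 pairs the 5′ ends were within 1000 bases of each other. Member and sense gene shared exon bases in 149 pairs, with a median of 300 bases, and in 9 pairs the shared bases were at least 50% of the member's exons, up to 95% for EML2-AS1 and 90.5% for PYCARD-AS1.

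The members were expressed at low levels. Their mean CPM over the 9 libraries (counts relative to library size, with TMM scaling) ranged from 1.28 to 177, with a median of 4.93. The most abundant were OIP5-AS1, which is also known as the lncRNA cyrano, with 180 ± 3.6 CPM in vector (SD, n = 3), followed by GABPB1-AS1 with 144 ± 24 CPM, FGD5-AS1 with 124 ± 1.4 CPM and THAP9-AS1 with 54.1 ± 8.8 CPM. PAX8-AS1, TMPO-AS1, PSMA3-AS1 and PCBP1-AS1 followed, with vector means between 38.5 and 46.2 CPM. None of these 8 was called in a mutant, and their log2 fold changes against vector lay between -0.37 and -0.02.

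Per kilobase of merged exons, the median level was 1.82 CPM for the members and 7.02 CPM for the sense genes, and 157 of the 187 sense genes had at least 30 counts in every library. The sense gene was above its antisense lncRNA in all 9 libraries in 127 of 190 pairs with a sense gene above 0, and the antisense lncRNA was above its sense gene in all 9 libraries in 53 pairs. In 30 of those 53 pairs the sense gene was under 30 counts in at least 1 library. FGD5-AS1 stood at 23.1 CPM per kilobase, while FGD5, an exchange factor known from endothelial cells, had 0 or 1 count per library. NAALADL2-AS2 stood at 28.2 CPM per kilobase over a sense gene with 8 to 28 counts per library. Of pairs with both genes well detected, VPS9D1-AS1 had 18.5 against 1.49 CPM per kilobase and THAP9-AS1 10.5 against 2.49, while OIP5-AS1 (13.99) and OIP5 (11.9), a centromere protein, were close. PCBP1-AS1 showed the reverse order, at 1.82 CPM per kilobase against 260 for PCBP1, an RNA-binding protein. These levels are a description of the cells, and a length based on all annotated exons lowers the level of a gene that uses few of them.

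**Figure D1:**
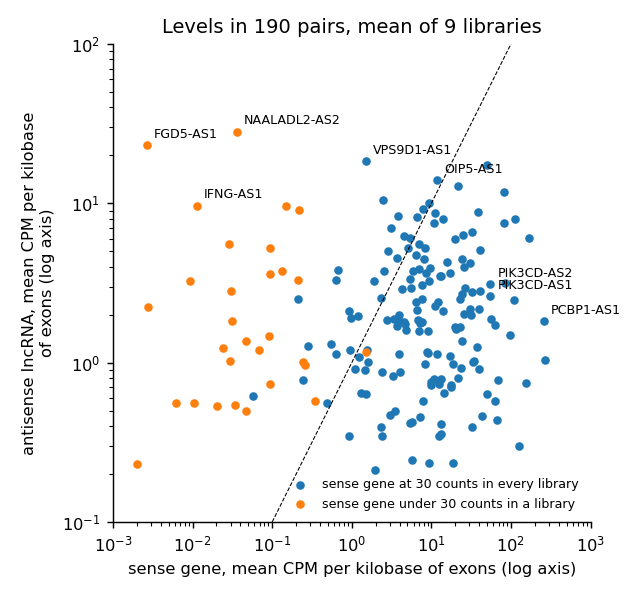
Mean level of each antisense lncRNA (vertical axis) against its sense gene (horizontal axis), in CPM per kilobase of exons on log axes, over 9 libraries for 190 pairs. The dashed line marks equal levels; most pairs lie below it, and pairs with a sense gene under 30 counts in a library (orange) lie mostly above it.

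Against vector, most members were lower in both mutants, by small amounts. Both comparisons use the same 3 vector libraries, so agreement between the mutants is not independent. All 193 members entered the tests. In S136X cells, 149 of 193 (77.2%) had a fitted log2 fold change under 0, with a median of -0.20 (quartiles -0.35 and -0.01), while the median over all 15530 genes tested was -0.02. In R58Q cells, 157 members (81.4%) were fitted lower, with a median of -0.23 (quartiles -0.37 and -0.05), beside -0.03 over 15435 genes. The median log2 difference of the members from the vector mean was -0.18, -0.26 and -0.12 for the 3 S136X libraries, and for the 3 R58Q libraries it was -0.26, -0.23 and -0.15. The vector libraries themselves lay at -0.07, 0.01 and 0.07, so that all 6 mutant libraries were below all 3 vector libraries.

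Other lncRNAs were lower as well. The 638 other lncRNAs with at least 30 counts in every library had medians of -0.19 in S136X and -0.21 in R58Q, with 71.9% and 72.3% fitted lower, and the 34 lncRNAs named as divergent or intronic transcripts had medians of -0.27 and -0.23. The 10774 protein-coding genes at the same level had medians of 0.01 and 0.02. Whether the members differed from other lncRNAs was not tested. Of the 193 members, 56 (29%) had all 3 S136X libraries below all 3 vector libraries, against 15.4% of all genes tested, and 62 (32.1%) had all 3 R58Q libraries below vector, against 19.2%. In the other direction, 8 members (4.15%) had all 3 mutant libraries above vector in each comparison, against 16% and 21.1% of all genes tested. The 638 other lncRNAs were near the members, with 24.9% in S136X and 29% in R58Q below vector in this way. Of them, 4.86% and 7.84% were above vector. In same-numbered libraries, 95 members were lower in all 3 pairs for S136X (49.2%, beside 29.5% of all genes tested) and 109 for R58Q (56.5%, beside 32.6%).

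**Figure D2:**
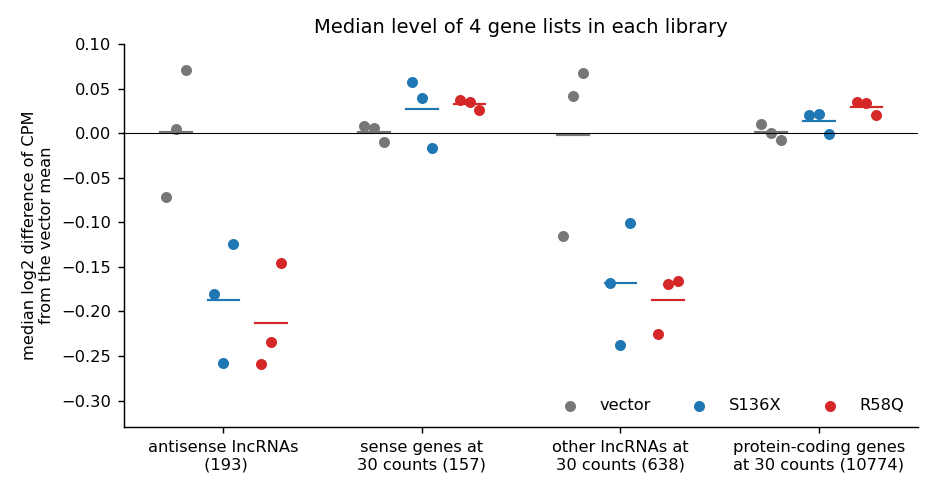
Median over each gene list of the log2 difference of CPM from the vector mean, 1 point per library (grey, vector; blue, S136X; red, R58Q) with the group mean as a line. The 6 mutant libraries lie between -0.26 and -0.12 for the antisense lncRNAs and are below the vector libraries, while the sense genes and protein-coding genes stay near 0. In other lncRNAs, S136X replicate 3 (-0.10) is above vector replicate 1 (-0.11).

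Few members passed the threshold for single genes, a change of 1.5-fold or more with an adjusted p under 0.05. In S136X, 6 of 193 were called, 1 higher and 5 lower, which is 3.11% beside 3.87% of all genes tested, and the 5 lower members are 2.59% beside 1.82%. In R58Q, 18 were called, 2 higher and 16 lower, which is 9.33% beside 7.63%, and the 16 lower members are 8.29% beside 3.54%. Over all genes tested, 2.05% were called higher in S136X and 4.09% in R58Q. Of the 638 other lncRNAs with at least 30 counts in every library, 5.02% were called lower in S136X and 7.68% in R58Q. Without the fold threshold, 3 members rose and 8 fell in S136X, and 5 rose and 23 fell in R58Q (adjusted p under 0.05 for 10.1% and 21% of all genes tested, and lower for 4.1% and 8.76%). The counts depended on single libraries. In S136X, 11 members were called when vector replicate 1 was left out, 3 when vector replicate 2 was, and 2 when either vector replicate 3 or S136X replicate 3 was, and 13 were called once the replicate number entered as a block (6.74%, beside 6.53% of all genes tested in the same blocked fit). In R58Q, 9 were called without vector replicate 2 and 10 without vector replicate 3. For the fits that leave out a library no share over all genes is given, so these counts are not set against all genes. The members called in all 6 fits that leave out a library were PIK3CD-AS1 and IFNG-AS1 in S136X and PIK3CD-AS1, IFNG-AS1, ADIRF-AS1, PLCG1-AS1 and H1-10-AS1 in R58Q. The block added ATP6V0E2-AS1, CCDC144NL-AS1, DLGAP1-AS1 and RTCA-AS1 (lower) and DDN-AS1 and RAMP2-AS1 (higher), among others, to the calls in S136X, with blocked adjusted p from 0.00082 for CCDC144NL-AS1 to 0.0394 for RTCA-AS1, and CCDC144NL-AS1 and CCNT2-AS1 (lower, adjusted p = 0.0022 and 0.0275) to those in R58Q, where 20 members were then called (10.4%, beside 10.7% of all genes).

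Members that start close to their sense gene had lower medians than members that start farther away, in both mutants. The 72 members whose 5′ end was within 1000 bases of the sense start had median log2 fold changes of -0.28 in either mutant, with 63 and 64 of 72 fitted lower. The 119 members with starts farther apart had medians of -0.11 and -0.20, with 84 and 91 fitted lower. The 18 members that faced the sense gene 5′ to 5′ without overlap had medians of -0.28 and -0.26, and 16 and 17 of them were fitted lower. The medians were -0.12 and -0.16 over the 45 members overlapping the 3′ end of their sense gene, and -0.20 in both mutants over the 25 members inside it. No test was made between these positions, and both comparisons share the vector libraries. The 42 members that share no exon base with their sense gene had medians of -0.28 and -0.26, beside -0.17 and -0.22 in the 149 that share some. The shift was present in members with higher and lower mean CPM, with medians of -0.17 and -0.22 in the 97 most abundant members and -0.24 and -0.26 in the other 96.

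Both antisense lncRNAs of PIK3CD changed, in opposite directions. PIK3CD encodes the p110 delta catalytic subunit of phosphoinositide 3-kinase, which signals downstream of the B-cell receptor. PIK3CD-AS1 (ENSG00000179840.5, chr1:9652610-9654586, minus strand) and PIK3CD-AS2 (ENSG00000231789.2, chr1:9672426-9687555, minus strand) both lie in the first intron of PIK3CD, from 0.88 to 2.85 kb and from 20.69 to 35.82 kb after its 5′ end, and neither shares an exon base with it.

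**Figure D3:**
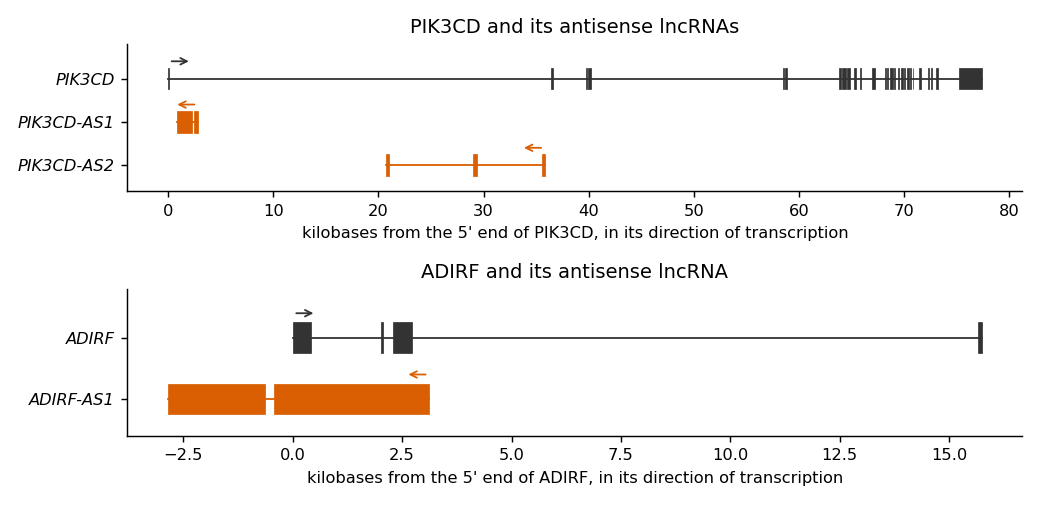
Merged exons (boxes) of PIK3CD and ADIRF (black) and their antisense lncRNAs (orange), in kilobases from the 5′ end of the sense gene in its direction of transcription, from GENCODE release 29. Arrows mark the direction of transcription; the PIK3CD antisense exons fall in its first intron, whereas the exons of ADIRF-AS1 lie over 3 of the 4 merged exons of ADIRF.

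Counts of PIK3CD-AS1 were 63, 61 and 85 in vector, 127, 143 and 163 in S136X and 191, 197 and 301 in R58Q. The 3 groups did not overlap, and the order was vector, S136X, R58Q. The log2 fold change of PIK3CD-AS1 against vector was 1.21 in S136X (standard error 0.20, adjusted p = 0.0077, quasi-likelihood test of edgeR, Benjamini-Hochberg adjusted over all genes, as for every adjusted p below) and 1.83 in R58Q (standard error 0.20, adjusted p = 0.00098). For PIK3CD-AS1, R58Q against S136X was not called (log2 fold change 0.61, adjusted p = 0.28). PIK3CD-AS2 had 158, 119 and 145 counts in vector, 72, 71 and 64 in S136X and 63, 85 and 61 in R58Q. All 6 mutant libraries were below the vector libraries, while S136X and R58Q overlapped. The log2 fold change of PIK3CD-AS2 was -0.87 in S136X (standard error 0.17, adjusted p = 0.016) and -0.89 in R58Q (standard error 0.20, adjusted p = 0.018). These calls were lost without vector replicate 3 (adjusted p = 0.0565 and 0.0575) and without replicate 3 of the mutant (0.0618 and 0.0655).

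PIK3CD itself had 7527, 7022 and 7401 counts in vector, 11288, 11452 and 10828 in S136X and 14437, 12048 and 14843 in R58Q. It rose by 0.77 in S136X (log2, standard error 0.06, adjusted p = 0.00028) and 1.03 in R58Q (standard error 0.08, adjusted p = 0.00014). Relative to PIK3CD, the level of PIK3CD-AS1 per kilobase was 0.0331 ± 0.006 for vector (SD, n = 3 here and for the next values), 0.0449 ± 0.0067 for S136X and 0.0577 ± 0.0123 for R58Q. The same ratio of PIK3CD-AS2 was 0.129 ± 0.0139 in vector, 0.0416 ± 0.0016 in S136X and 0.0349 ± 0.011 in R58Q. PIK3CD-AS2 was the member further inside the intron, and in vector cells it was the more abundant of the pair per kilobase.

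ADIRF-AS1 (ENSG00000272734.1, chr10:86965345-86971311, minus strand) was called higher in R58Q. It had 107, 119 and 142 counts in vector, 113, 87 and 138 in S136X and 407, 252 and 533 in R58Q. All R58Q libraries were above the other 6, whose groups overlapped. The log2 fold change of ADIRF-AS1 was 1.80 in R58Q (standard error 0.24, adjusted p = 0.0023) and 0.05 in S136X (standard error 0.23, adjusted p = 0.92). R58Q against S136X gave 1.75 (standard error 0.29, adjusted p = 0.056), and 1.74 in the blocked fit by replicate number (adjusted p = 6.1e-10).

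ADIRF, a small protein named for its role in fat-cell differentiation, had 0, 2 and 4 counts in vector, 0, 7 and 6 in S136X and 141, 78 and 182 in R58Q. Summed over libraries, this is 401 counts in R58Q and 6 in vector, a ratio of 72.7 (exact 95% interval 33.1 to 199, counting error only) after scaling, and 30.1 (17.4 to 57) against the 13 counts in S136X. The test called ADIRF in R58Q against vector (adjusted p = 0.00037) and against S136X (adjusted p = 0.019). The second call was lost without S136X replicate 2, S136X replicate 3 or R58Q replicate 3. Of the 998 exon bases of ADIRF, 917 (91.9%) lie opposite exons of ADIRF-AS1, and these shared bases are 16% of the exons of ADIRF-AS1. Of the 31-base words of ADIRF-AS1, 18.9% also occur in transcripts of other genes.

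IFNG-AS1 (ENSG00000255733.6, chr12:67989445-68234686, plus strand) fell in both mutants. This lncRNA is known from T helper cells, where it accompanies interferon gamma expression. It had 917, 956 and 1041 counts in vector, 454, 518 and 543 in S136X and 452, 439 and 576 in R58Q. All 6 mutant libraries were below vector, and the mutants overlapped each other. The level of IFNG-AS1 was 29 ± 1.7 CPM in vector, 16.9 ± 1.9 CPM in S136X and 15.8 ± 1.6 CPM in R58Q, with SDs over 3 libraries. The log2 fold change was -0.78 in S136X (standard error 0.10, adjusted p = 0.003) and -0.87 in R58Q (standard error 0.10, adjusted p = 0.00089), and both calls held under every alternative computed. IFNG, the cytokine gene that IFNG-AS1 spans on the opposite strand without sharing exon bases, had 0 or 1 count in every library, so no fold is given for it.

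**Figure D4:**
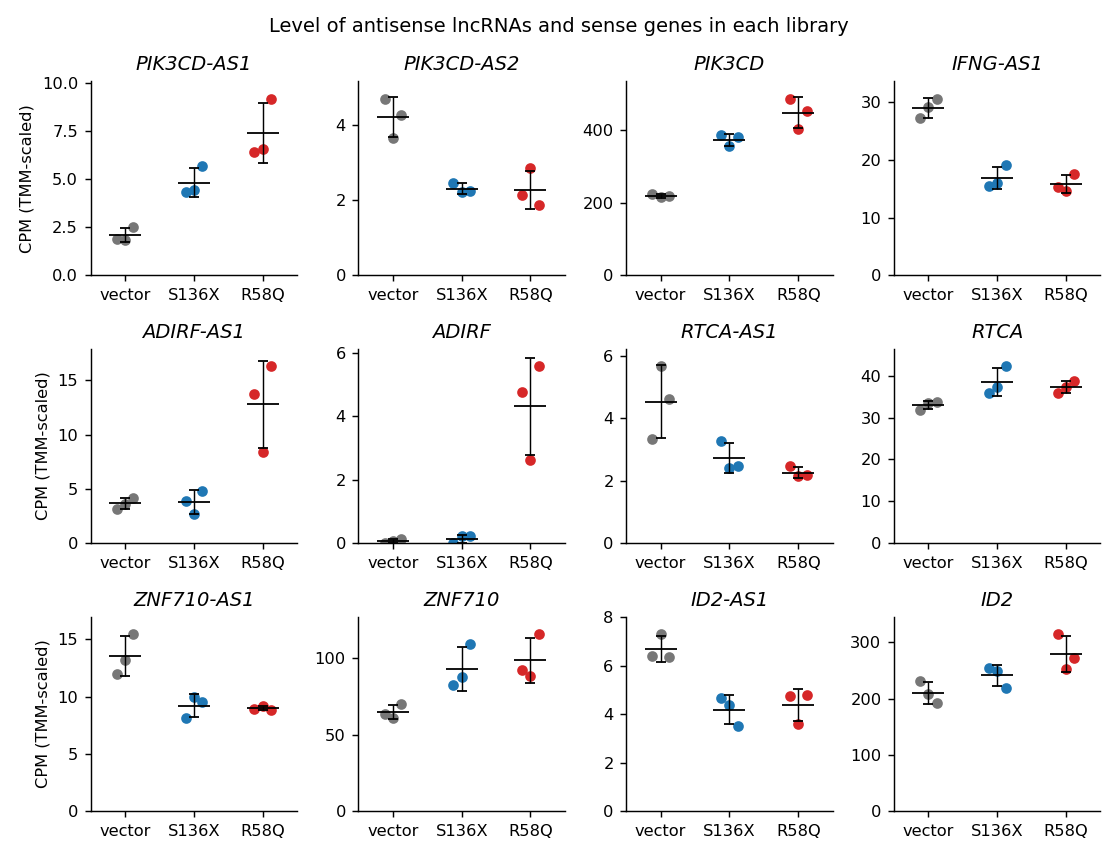
Level in each library (CPM with TMM scaling, vertical axes from 0) of 6 antisense lncRNAs other than IFNG-AS1 with their sense genes, and of IFNG-AS1, by group (grey, vector; blue, S136X; red, R58Q). Points are libraries, bars the mean and SD (n = 3); PIK3CD-AS1 and PIK3CD-AS2 move in opposite directions, and the rise of ADIRF-AS1 and ADIRF is seen in the R58Q libraries.

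Among the members with starts close to their sense gene, RTCA-AS1, ZNF528-AS1 and DICER1-AS1 were lower while the sense gene was not called. RTCA-AS1 (ENSG00000224616.3, chr1:100251528-100266179) is divergent from RTCA, an RNA 3′-phosphate cyclase. Its counts were 112, 185 and 157 in vector, 96, 78 and 70 in S136X and 73, 64 and 71 in R58Q. All 6 mutant libraries were below vector. It fell by 1.01 in R58Q (log2, standard error 0.22, adjusted p = 0.015), a call lost without vector replicate 2 or R58Q replicate 3 (adjusted p = 0.0581 and 0.0538). In S136X its log2 fold change was -0.74 (standard error 0.23, adjusted p = 0.078), and RTCA had 0.22 and 0.17 (adjusted p = 0.13 and 0.094). RTCA-AS1 has 68.0% of its exon bases opposite exons of other genes, none of them RTCA's.

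ZNF528-AS1 (ENSG00000269834.6, chr19:52388842-52397783) had 181, 272 and 263 counts in vector, 117, 122 and 141 in S136X and 91, 115 and 130 in R58Q. All mutant libraries were again lower. Its log2 fold change was -0.75 in S136X (standard error 0.20, adjusted p = 0.044) and -0.98 in R58Q (standard error 0.20, adjusted p = 0.012). The S136X call was lost in 5 of 6 fits without a library, all but that without vector replicate 1 (adjusted p = 0.0678 to 0.183), and the R58Q call without vector replicate 2 (adjusted p = 0.0549). ZNF528, a zinc-finger gene 83 bases away in the table, had 250, 385 and 406 counts in vector, 165, 200 and 234 in S136X and 166, 234 and 251 in R58Q. Its log2 fold changes of -0.64 and -0.56 had adjusted p of 0.095 and 0.091, and with the replicate block it was called in S136X (adjusted p = 0.0054).

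ID2-AS1 (ENSG00000235092.6, chr2:8666636-8681864) accompanies ID2, a helix-loop-helix protein that blocks DNA binding of E proteins. ID2-AS1 had 216, 239 and 216 counts in vector, 137, 141 and 100 in S136X and 141, 108 and 156 in R58Q, without overlap between vector and mutants. It fell by 0.67 in S136X (log2, standard error 0.15, adjusted p = 0.028) and by 0.61 in R58Q (standard error 0.15, adjusted p = 0.026). Both calls were lost without replicate 2 or 3 of either group (adjusted p = 0.0595 to 0.126 and 0.0531 to 0.104). ID2 had 7782, 6806 and 6540 counts in vector, 7463, 8042 and 6270 in S136X and 9340, 7562 and 8909 in R58Q. It rose by 0.41 in R58Q (log2, adjusted p = 0.022), under the fold threshold, and had 0.20 in S136X (adjusted p = 0.18).

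In R58Q, 11 further members were called lower that were not called in S136X, RTCA-AS1 among them, and for none of the 11 did the difference between the mutants pass the test. PLCG1-AS1, antisense to the gene of phospholipase C gamma 1, had 173, 182 and 177 counts in vector, 132, 93 and 114 in S136X and 93, 67 and 100 in R58Q. Its log2 fold change was -0.92 in R58Q (standard error 0.17, adjusted p = 0.0082) and -0.48 in S136X (adjusted p = 0.14). PLCG1 had -0.40 in R58Q (adjusted p = 0.019). H1-10-AS1, beside the linker histone gene H1-10, stood at 6.91, 6.44 and 7.03 CPM in vector, 4.3, 5.36 and 4.56 CPM in S136X and 3.2, 4.54 and 3.45 CPM in R58Q, so that all mutant libraries were lower. Its log2 fold change was -0.87 in R58Q (standard error 0.16, adjusted p = 0.0085) and -0.52 in S136X (adjusted p = 0.049, under the fold threshold), while H1-10 had -0.19 and -0.23 (adjusted p = 0.15 and 0.17). DICER1-AS1, divergent from the gene of the RNase that makes miRNAs, had 123, 127 and 119 counts in vector, 86, 80 and 70 in S136X and 64, 52 and 79 in R58Q. It fell by 0.81 in R58Q (log2, standard error 0.17, adjusted p = 0.015; 0.0673 without vector replicate 2), and DICER1 had 0.07 (adjusted p = 0.66).

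The others had smaller counts or less stable calls in R58Q. ATP6V0E2-AS1 fell by 0.90 (log2, adjusted p = 0.032), and ATP6V0E2, a subunit of the vacuolar proton pump, by 0.46 (adjusted p = 0.0038). The call of ATP6V0E2-AS1 was lost in 5 of 6 fits without a library, all but that without vector replicate 2 (adjusted p up to 0.0973), and 864 of its exon bases are shared with ATP6V0E2. PTOV1-AS1 fell by 0.88 (adjusted p = 0.036), a call lost without replicate 2 of either group, vector replicate 3 or R58Q replicate 1 (up to 0.12). PTOV1 had 310 ± 14 CPM in vector and 311 ± 30 CPM in R58Q (SD, n = 3). RASSF8-AS1 fell by 0.85 (adjusted p = 0.02, up to 0.0832 without vector replicate 2, R58Q replicate 2 or R58Q replicate 3), and RASSF8 had -0.31 (adjusted p = 0.38). WEE2-AS1 fell by 0.78 (adjusted p = 0.026, up to 0.0932 without vector replicate 3 or any R58Q library) and TSBP1-AS1 by 0.64 (adjusted p = 0.023, up to 0.082 without vector replicate 2 or 3 or R58Q replicate 1 or 3). Their sense genes, an oocyte kinase and a gene of the MHC region, had at most 4 counts in any library. TSBP1-AS1 has 31.6% of its words in other genes. ZNF710-AS1 is described with its sense gene below.

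The sense genes as a group did not share the shift of the members. In S136X their median log2 fold change was 0.01 (169 of 187 tested), and in R58Q it was 0.02 (171 tested). Member and sense gene had the same sign in 94 of 173 tested pairs in S136X (54.3%) and 91 of 175 in R58Q (52.0%). With unlinked signs these shares would be 48.9% and 48.0%, and the difference was not tested. The commonest combinations were both lower (69 and 71 pairs) and antisense lower with sense higher (65 and 73 pairs). Across pairs, Pearson's r between the 2 log2 fold changes was 0.16 in S136X (n = 173, Spearman's rho 0.15) and 0.46 in R58Q (n = 175, rho 0.14), and 0.25 in R58Q without the ADIRF pair. These values are descriptions across genes measured in the same libraries. For pairs with starts within 1000 bases, r was 0.51 in S136X and 0.37 in R58Q (n = 71). For pairs with starts farther apart, which include the ADIRF pair, r was 0.01 in S136X (n = 102) and 0.49 in R58Q (n = 104). By r, the order of the close and the distant pairs was thus not the same in both mutants. By Spearman's rho it was, with 0.38 in S136X and 0.29 in R58Q for close pairs and 0.02 and 0.07 for distant pairs. The mutants share the vector libraries here too.

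**Figure D5:**
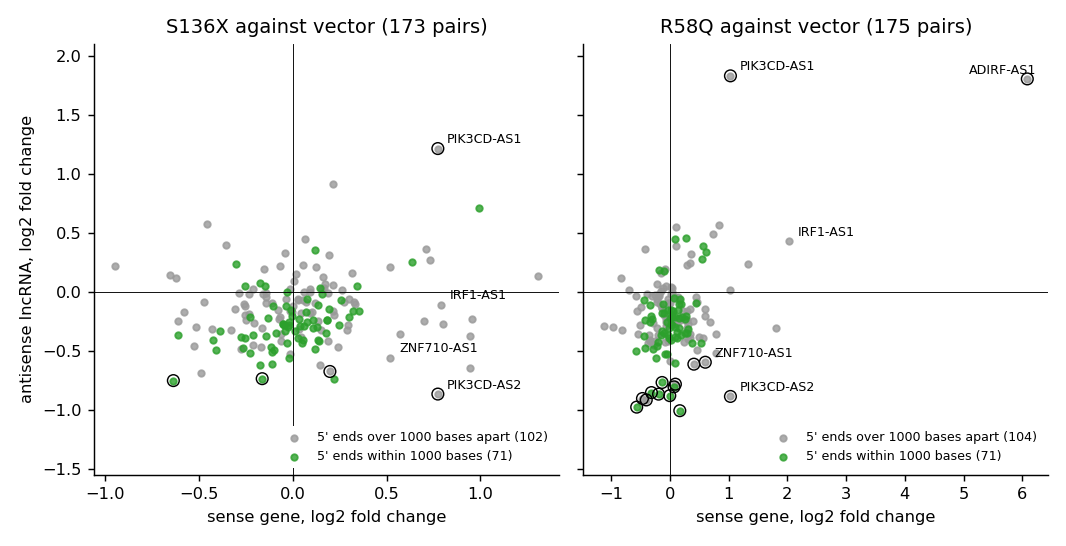
Log2 fold change against vector of each antisense lncRNA (vertical axis) against that of its sense gene (horizontal axis), for S136X (173 pairs) and R58Q (175 pairs). Green points have starts within 1000 bases, black circles mark called antisense lncRNAs; most points lie below 0 on the vertical axis and spread to either side of 0 on the horizontal axis.

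Pairs in which both genes had an adjusted p under 0.05 numbered 3 of 173 tested in S136X and 11 of 175 in R58Q. Singly, 11 of 193 members and 28 of 169 sense genes passed in S136X, and 28 members and 54 of 171 sense genes in R58Q. Of all genes tested, 10.1% and 21% passed. Whether both genes of a pair passed more often than unlinked genes would was not tested. In S136X, PIK3CD-AS1 rose with PIK3CD, while PIK3CD-AS2 and ZNF710-AS1 fell as their sense genes rose. In R58Q, 7 pairs moved the same way (PIK3CD-AS1, SLC16A1-AS1, ATP6V0E2-AS1, ADIRF-AS1, PDCD4-AS1, LENG8-AS1 and PLCG1-AS1, of which SLC16A1-AS1, PDCD4-AS1 and LENG8-AS1 were named after their values were seen) and 4 moved in opposite directions (PIK3CD-AS2, ID2-AS1, ZEB1-AS1 and ZNF710-AS1). ZNF710-AS1 (ENSG00000259291.2, chr15:90074512-90082207), at the 3′ end of the zinc-finger gene ZNF710, had 405, 433 and 525 counts in vector, 238, 322 and 272 in S136X and 265, 275 and 289 in R58Q. ZNF710 had 2148, 1996 and 2385 counts in vector, 2412, 2824 and 3116 in S136X and 2743, 2646 and 3788 in R58Q. In both genes the mutant libraries were separate from vector. The log2 fold changes were -0.56 (adjusted p = 0.031) and 0.52 (adjusted p = 0.02) in S136X and -0.60 (adjusted p = 0.011) and 0.60 (adjusted p = 0.0071) in R58Q, for ZNF710-AS1 and ZNF710 in turn.

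The ratio of ZNF710-AS1 to ZNF710 per kilobase was 0.355 ± 0.0296 for vector (SD, n = 3 per group), 0.17 ± 0.0228 for S136X and 0.157 ± 0.0244 for R58Q. The pair shares 793 exon bases, 27.3% of the exons of ZNF710-AS1. In R58Q both values were close to the 1.5-fold threshold (0.585 on the log2 scale), and the fold of ZNF710-AS1 fell below it without vector replicate 3 (-0.49), R58Q replicate 1 (-0.58) or R58Q replicate 3 (-0.58), and that of ZNF710 without vector replicate 2 (0.57) or R58Q replicate 3 (0.48) and with other scalings (0.54 and 0.55). ZEB1-AS1 had 272, 252 and 293 counts in vector, 210, 175 and 229 in S136X and 165, 160 and 212 in R58Q, and fell by 0.49 in R58Q (log2, adjusted p = 0.029). ZEB1, a repressor known from epithelial to mesenchymal transition and lymphocyte development, rose by 0.70 in S136X (log2, standard error 0.10, adjusted p = 0.0044) and by 0.47 in R58Q (adjusted p = 0.0091).

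Of the sense genes, 13 were called in S136X (10 higher, 3 lower; 7.69% of 169 tested beside 3.87% of all genes) and 14 in R58Q (11 higher, 3 lower; 8.19% of 171 beside 7.63%). With upper-quartile scaling, or with total counts only, the R58Q calls divided into 7 higher and 7 lower. Without vector replicate 2, 8 were called in S136X and 9 in R58Q. Most of the called sense genes had an antisense lncRNA that was not called. IRF1, an interferon-regulated transcription factor, had 561, 664 and 762 counts in vector, 706, 1471 and 933 in S136X and 2658, 2670 and 2077 in R58Q. It rose by 2.03 in R58Q (log2, standard error 0.16, adjusted p = 0.00014) and by 0.79 in S136X (standard error 0.21, adjusted p = 0.048), the latter lost in 5 of 6 fits without a library, all but that without S136X replicate 1 (adjusted p up to 0.148). IRF1-AS1, which overlaps its 3′ end, had 68, 67 and 84 counts in vector, 37, 92 and 55 in S136X and 54, 131 and 86 in R58Q, with overlapping groups (log2 fold changes -0.11 and 0.43, adjusted p = 0.84 and 0.35).

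ENTPD1, which encodes the ectonucleotidase CD39, rose by 1.31 in S136X (log2, adjusted p = 0.0035) and by 1.02 in R58Q (adjusted p = 0.01, 0.0527 without vector replicate 2). ECE1, the endothelin-converting enzyme, rose by 0.71 and 0.83 (adjusted p = 0.00033 and 8.5e-05), and ELOA, the elongin A subunit, by 0.80 and 0.60 (adjusted p = 0.00036 and 0.0014). SLC16A1, a lactate transporter, rose by 0.64 and 0.62 (adjusted p = 0.0018 and 0.00094). The R58Q folds of ELOA and SLC16A1 were under the threshold with either other scaling (0.54 to 0.56), that of ELOA also without R58Q replicate 1 (0.57) or 3 (0.58), and that of SLC16A1 without vector replicate 3 (0.58), as was its S136X fold without S136X replicate 1 (0.57) or with total counts (0.58). DDN was called in S136X (0.99, adjusted p = 0.026, up to 0.117 without vector replicate 2 or 3 or S136X replicate 3), and TTC28 in S136X (0.95, adjusted p = 0.014, lost at 0.0651 when vector replicate 2 was left out and at 0.0507 when S136X replicate 3 was) and R58Q (0.68, adjusted p = 0.049, lost in 5 of 6 fits without a library, all but that without R58Q replicate 1, at up to 0.132). MMP25 rose from 10 counts in the 3 vector libraries to 33 in R58Q, a ratio of 3.59 (exact 95% interval 1.73 to 8.17, counting error only; adjusted p = 0.014, 0.0613 and 0.0576 without vector replicates 2 and 3).

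CD27, a TNF-receptor family member of memory B cells, was lower in both mutants. It had 3077, 2332 and 2469 counts in vector, 1031, 1559 and 1097 in S136X and 1327, 1585 and 1560 in R58Q. CD27 fell by 0.95 in S136X (log2, standard error 0.13, adjusted p = 0.0044) and by 0.70 in R58Q (standard error 0.11, adjusted p = 0.0041), the latter under the fold threshold without vector replicate 1 (-0.56). CD27-AS1, which shares 522 exon bases with it, had 76 to 112 counts in all libraries, without separation of the groups (log2 fold changes 0.22 and 0.02, adjusted p = 0.44 and 0.95). SNAI3 fell by 0.81 in R58Q (adjusted p = 0.013; with the block also called in S136X, adjusted p = 0.0148). CDKN2B, an inhibitor of cyclin-dependent kinases, fell by 1.11 in R58Q (adjusted p = 0.019), a call lost without vector replicate 2 or 3 or R58Q replicate 3 (up to 0.073). In S136X, ZSCAN16 fell by 0.65 (adjusted p = 0.016, up to 0.0814 without vector replicate 2 or S136X replicate 3) and MCF2L by 0.61 (adjusted p = 0.019, up to 0.0756 without vector replicate 2 or 3, and -0.51 without S136X replicate 1).

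Some members were also grouped by the function of their sense gene. The immune and NF-kB gene list used here, which does not hold every immune gene, contained the sense genes of 5 members, IRF1-AS1, PSMB8-AS1, TRAF3IP2-AS1, CD27-AS1 and IFNG-AS1. Of these 5, IFNG-AS1 was called and lower. The other 4 were not called, with log2 fold changes between -0.11 and 0.22 in S136X and between 0.02 and 0.55 in R58Q. TRAF3IP2-AS1, at a gene that relays interleukin-17 signals, had 98, 65 and 92 counts in vector and 102, 115 and 126 in R58Q, which did not overlap (log2 fold change 0.55, adjusted p = 0.068). A group of 14 members had a sense gene with a symbol starting in ZNF, ZBTB, ZFP, ZSCAN or ZKSCAN, so that zinc-finger genes with other names, such as ZEB1 and SNAI3, were not in it. Of these 14, ZNF528-AS1 was called in S136X and ZNF528-AS1 and ZNF710-AS1 in R58Q, all lower, and 10 and 13 of the 14 were fitted lower, with medians of -0.23 and -0.27.

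R58Q and S136X cells were compared directly to see where the members differed between the mutants. None of the 193 members was called by edgeR (0.434% of all 15195 genes tested were), and 16 had an unadjusted p under 0.05 (11% of all genes). DESeq2 called 3 members, for which no share over all genes is given. The median log2 fold change of the members was -0.03, beside 0.00 over all genes. With the replicate number as a block 6 were called (3.11%, beside 2.94% of all genes in the same blocked fit), 2 higher and 4 lower in R58Q. The higher ones were ADIRF-AS1, given above, and PIK3CD-AS1 (log2 fold change 0.60, adjusted p = 0.00043, against 0.61 and 0.28 without the block). The lower ones were SMARCA5-AS1 (-1.05, adjusted p = 0.0009), RUSC1-AS1 (-0.75, adjusted p = 0.0115), SLC25A5-AS1 (-0.71, adjusted p = 0.0012) and MIF-AS1 (-0.61, adjusted p = 0.00011), with adjusted p from 0.093 to 0.31 without the block. SMARCA5-AS1 had 86, 41 and 50 counts in vector, 68, 70 and 78 in S136X and 42, 32 and 34 in R58Q, with R58Q below S136X in all libraries and the vector libraries overlapping both. ADIRF was the 1 sense gene called between the mutants, and with the block IRF1 was called as well (log2 fold change 1.25 with the block, adjusted p = 2.0e-07, and 1.23, adjusted p = 0.085, without).

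The minimum of 30 counts in every library set the membership. Just inside it were ATP6V0E2-AS1, KMT2E-AS1 and PYCARD-AS1, each with 30 counts in its lowest library. Just outside, with 29, were DDX11-AS1, FGF14-AS2 and RFX3-AS1. DDX11-AS1 had 82, 75 and 75 counts in vector, 51, 54 and 41 in S136X and 29, 48 and 49 in R58Q, so the minimum left it out through a library in which it was low. It was called lower in R58Q against vector in the main fit. That call was lost with DESeq2 and in all 6 fits that leave out a library. A minimum in every library keeps out lncRNAs that fell to low counts as well as those that were low throughout. EPB41L4A-AS1, which the rule leaves out by name, had 842 to 1144 counts in all libraries, with log2 fold changes of 0.04 in S136X and 0.06 in R58Q (adjusted p = 0.84 and 0.78).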

How the data were processed

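RNA was prepared with the NuGEN Universal Plus mRNA-Seq kit after poly(A) selection and read as single ends, and 2 runs were combined per library. The submitters' processing notes name cutadapt, STAR, Picard and hg38, and versions and the counting tool are not given in the sources used here. The authors deposited raw counts for 60656 genes. The deposited signal columns, which the authors made by dividing the counts of each library by 1 factor, were not used for any result. Each comparison was fitted on the counts of its 6 libraries with edgeR 4.0.16 (R 4.3.3; TMM factors, filterByExpr with a minimum of 10 counts and a total of 15, quasi-likelihood test, Benjamini-Hochberg adjustment over all genes tested). Called genes had an adjusted p under 0.05 with a change of 1.5-fold or more. DESeq2 1.42.0, limma-voom (limma 3.58.1), other scalings, filters and thresholds, all 9 libraries in 1 fit, a replicate block and leaving out each library were alternatives. In a simulation of S136X against vector over 15530 genes, 71% of 200 genes given a 2-fold change were recovered, with 5 false calls. The share was 74% for R58Q against vector and 66.5% for R58Q against S136X. The genes were drawn from all genes tested and the libraries independently of each other. These shares are thus not those of the members, whose levels were low and whose median changes were smaller.

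Same-numbered libraries deviated together (9 correlations of deviations from group means, 0.143 to 0.626, median 0.425). Differently numbered libraries gave 18 correlations from -0.459 to 0.169 (median -0.251), so the ranges overlap at their ends. Deviations from a group mean cancel out within the group. Positive values at the same number therefore go with negative values elsewhere, which are no separate evidence of pairing. The numbers were taken to pair the libraries, although the R58Q libraries carry a later date. The blocked fits rest on this pairing, and the main fits do not use it. The study calls the libraries biologic replicates, the sources used here do not say how their cultures were separated, and p-values measure the spread between these libraries. With 28047713 to 33122267 counts per library, a gene with no count may still stand at up to 3 counts, and count intervals cover counting error only. Strands, gene spans and merged exons came from GENCODE release 29 (96.3% of the gene identifiers matched, and all 193 members). Named genes were the called members and their sense genes, the 8 most abundant members, called sense genes of uncalled members (at most 8 higher and 8 lower), pairs moving oppositely, members at the count threshold, members whose sense gene is on the immune list, and BCL10. Members named for the blocked fit, for their level per kilobase or for their position, and SLC16A1-AS1, PDCD4-AS1 and LENG8-AS1, fall outside this rule and were chosen after their values were seen. The members and lists were chosen with earlier results of these data known. Some genes that meet the rule for naming are counted but not reported here by name.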

Additional observations from a re-analysis of the deposited data

Results flagged for a closer look

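ADIRF differed between the mutants under the same contrast. In the direct test of R58Q against S136X its log2 fold change was 4.86 (standard error 0.59, adjusted p = 0.019, edgeR's quasi-likelihood test), with 0, 7 and 6 counts in S136X and 141, 78 and 182 in R58Q, higher in 3 of 3 libraries. Its exons lie to 91.9% opposite exons of ADIRF-AS1, which rose in the same libraries, and the setting for strand during counting is not known. The difference from the vector libraries, which held 0, 2 and 4 counts, was tested separately and is given above. The call was lost without S136X replicate 2, S136X replicate 3 or R58Q replicate 3. The R58Q libraries also carry the later date, and the part of the date in this difference cannot be told apart from that of the construct.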

How the results depend on the processing

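The members' median log2 fold change stayed under 0 in both mutants under every alternative computed. It ranged from -0.23 to -0.14 in S136X and from -0.25 to -0.20 in R58Q when 1 library was left out, and was -0.29 in R58Q with upper-quartile factors. Pairs of the same sign in R58Q were 61.7% with upper-quartile factors and 61.1% with total counts only, against 52.0%. With these scalings the median of the sense genes was -0.04 and -0.03, against 0.02, and 168 and 166 members were fitted lower, against 157. Shares over all genes are given for the main and the blocked fits alone, so the counts of called genes under the other alternatives are not set against all genes. When 1 library was left out, members called ranged from 2 to 11 in S136X, 9 to 19 in R58Q and 0 to 1 in R58Q against S136X, and sense genes from 8 to 14, 9 to 17 and 0 to 2. Without a minimum fold, 11 and 28 members and 28 and 54 sense genes passed in S136X and R58Q, and at an adjusted p under 0.01 with the fold these were 2 and 5 members and 8 and 9 sense genes, and 0 sense genes between the mutants. With the list set at 10 counts in every library, 11 and 31 of 291 lncRNAs were called in S136X and R58Q. At 100 counts these were 3 and 5 of 100, beside 3.87% and 7.63% of all genes tested. With no filter on low counts, 10 members were called in S136X and 2 between the mutants, and 3 sense genes between the mutants. With the replicate number as a block, 13 members were called in S136X, and 6 members and 2 sense genes between the mutants. Other values between the mutants were 3 members and 3 sense genes with DESeq2, 1 and 3 with all 9 libraries in 1 fit, and 0 sense genes with limma-voom or with at least 10 counts in every library. Of the values of single named genes under the alternatives, 2583 kept their direction and side of the threshold, 111 no longer passed it, 46 newly passed it and none reversed. The cause of these changes was not tested.

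Low counts limit single members, since a median member had 4.93 CPM, and shared exon bases limit which gene of a pair a read belongs to. All results come from 1 cell line with 3 libraries per group.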
